A study of Mus musculus with 8 samples.

Results

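The late recovery step after a single dose of IFNα was examined as 72 h against 24 h in haematopoietic stem and progenitor cells (HSPCs) of the bone marrow. The members were the cells of the 24 h and 72 h libraries that carried exactly one mouse hashtag, had at most 5% of their unique molecular identifiers (UMIs) from mt- genes and held at least 700 detected genes. They numbered 5911 of the 10046 cells that passed the same filters in the whole series, 3462 at 24 h and 2449 at 72 h, and came from 8 of 16 mice. Raw UMIs were summed per mouse, so that each comparison set 4 mice at 72 h against 4 mice at 24 h over all genes.

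All mice were wild type (C57Bl/6), 12-14 weeks old, and the 8 mice compared had been given IFNα under the skin, at 50000 IU for each 20 g of body weight, 24 h or 72 h before collection. The other 8 mice of the series, 4 given PBS (control) and 4 collected 3 h after IFNα, are used only as levels beside the comparison. Cells were sorted as lineage-negative and cKit+, with extra CD150+ CD48- CD34- cells added to enrich haematopoietic stem cells (HSCs), so shares of cell types are shares of a designed mixture. The 4 mice of a time point carried different hashtag antibodies and were pooled in 1 droplet library, hence time point and library cannot be told apart, and each p-value measures the spread between mice within a library. The hashtag numbers name antibodies, and no source used here states a link between same-numbered mice of different time points.

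Type I interferon binds its receptor on nearly every cell and raises interferon-stimulated genes (ISGs), many of which carry an interferon-stimulated response element (ISRE) in their promoters. ISG products include antiviral effectors, immunity GTPases, the MHC class I presentation machinery and feedback inhibitors such as USP18. In the marrow, IFNα is known for drawing quiescent HSCs into the cell cycle and for raising Sca-1 (Ly6a) on progenitors.

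The sum of UMIs per mouse was 13320638 to 26446327 at 24 h (613 to 1240 cells) and 8701872 to 13134876 at 72 h (489 to 775 cells). The 72 h cells were shallower, with a median of 13990 to 15281 UMIs per cell against 17791 to 20231, and the filters removed 16.3% to 22.99% of their single-hashtag barcodes against 12.4% to 13.8%. No barcode sequence was shared by the kept cells of both libraries. Kit, the receptor that the sort selected on, was at 89.1 to 101 CPM at 24 h and 111 to 119.9 CPM at 72 h. Of the markers of other cells, 9 of 11 B and plasma cell, 14 of 17 T and NK cell, 15 of 15 macrophage and 16 of 17 stromal and endothelial genes had at least 1 UMI in the 8 mice. Ms4a1, Cd3e, Ncr1, Gzma and Col1a1 were among those at 0 in all 8.

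Of 11857 genes tested, 502 (4.23%) were higher and 769 (6.49%) lower at 72 h by edgeR's quasi-likelihood test at a Benjamini-Hochberg adjusted p under 0.05, which is 10.7% in either direction. Without mouse 1 of 72 h the count fell to 773 genes. A fold over 2 was reached by 79 genes (0.666%), 68 of them lower and 11 higher at 72 h. The median log2 fold change of all tested genes was 0.007.

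To show what the ISGs have upstream, 200 bases before the RefSeq start (GRCm38.p6) are given for a ubiquitin-like antiviral ISG, the antiviral ISG Rsad2 (viperin), an immunity GTPase and the MHC class I light chain. Capitals mark matches to the ISRE letters GAAANNGAAA, searched on both strands (TTTCNNTTTC on the other) with overlapping matches counted, and each sequence runs 5′ to 3′ in the direction of its gene.
Isg15, chr4:156200819-156201018, minus strand: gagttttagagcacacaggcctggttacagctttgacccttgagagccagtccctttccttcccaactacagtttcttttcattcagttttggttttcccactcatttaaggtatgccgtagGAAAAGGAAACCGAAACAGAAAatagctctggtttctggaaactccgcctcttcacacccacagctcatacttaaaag
Rsad2, chr12:26456453-26456652, minus strand: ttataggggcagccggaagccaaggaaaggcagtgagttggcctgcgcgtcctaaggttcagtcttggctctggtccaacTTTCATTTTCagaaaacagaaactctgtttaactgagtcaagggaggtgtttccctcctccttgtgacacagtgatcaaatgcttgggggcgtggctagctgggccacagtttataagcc
Irgm1, chr11:48871421-48871620, minus strand: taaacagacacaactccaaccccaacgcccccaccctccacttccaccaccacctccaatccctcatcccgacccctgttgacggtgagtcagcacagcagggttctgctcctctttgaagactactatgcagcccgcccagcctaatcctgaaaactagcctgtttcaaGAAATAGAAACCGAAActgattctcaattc
B2m, chr2:122147487-122147686, plus strand: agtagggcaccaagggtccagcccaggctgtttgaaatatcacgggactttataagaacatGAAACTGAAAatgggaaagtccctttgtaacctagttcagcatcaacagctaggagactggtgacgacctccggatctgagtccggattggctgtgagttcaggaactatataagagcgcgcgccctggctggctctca

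The 3 overlapping matches of Isg15 began 78, 72 and 66 bases before the start, and the 2 of Irgm1 30 and 24 bases before it. Rsad2 and B2m held 1 match each, 120 and 139 bases before the start. Over the 250 bases before the start of 27013 genes, 3.46% held such a match. The promoter table held only 52 of the 67 ISGs and 10 of the 15 GTPases tested, too small a part of either list for a share, so none is given. Of the MHC class I and peptide loading genes, 20 of 24 had a promoter and 3 of those (15%) held a match. Irf7, Ifi44, Oasl2, Xaf1, Tap1 and Tapbp held none in this window, which says only that these letters are not there.

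ISGs fell together between 24 h and 72 h. Of 67 ISGs tested, 60 were lower and none higher at 72 h, with a median log2 fold change of -0.94 against 0.007 for all genes, and 33 of them fell by over 2-fold. In 61 of the 67, all 4 mice at 72 h were below all 4 at 24 h, as they were in 1063 of the 11857 genes. The summed level of the list was 4692 to 5068 CPM, UMI counts scaled to the same library total, in the 24 h mice and 2513 to 2572 CPM in the 72 h mice, next to 2519 to 2698 CPM in control mice and 17192 to 19291 CPM at 3 h. The 72 h sums thus lay within or just under the range of the control mice.

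Ifi27l2a, an interferon-induced gene of a mitochondrial membrane protein family, showed the largest fall among genes with a mean of at least 10 CPM. It stood at 141, 138, 127 and 133 CPM in the 24 h mice and at 10.5, 14.8, 12.7 and 9.71 CPM in the 72 h mice, with no overlap. The fall was 11.4-fold (log2 fold change -3.51 ± 0.08 SE, edgeR adjusted p = 1.27e-13). Unlike Irf7, Isg15 and Rtp4, its mean level was higher at 24 h (135 CPM) than at 3 h (61.2 CPM), and the 72 h mean of 11.9 CPM lay beside the control mean of 12.2 CPM.

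Irf7, the transcription factor that amplifies the interferon response, was at 57.8, 66.7, 65.6 and 65.8 CPM at 24 h. At 72 h it was at 7.30, 9.98, 5.09 and 5.83 CPM. All 72 h mice were below all 24 h mice, a 9.24-fold fall (log2 fold change -3.21 ± 0.11, edgeR adjusted p = 1.40e-11). Irf9, a transcription factor of interferon signalling, fell less, from 41.9 ± 2.76 to 23.2 ± 2.66 CPM (SD, n = 4 each), beside a control mean of 23.3 CPM.

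Isg15, the ubiquitin-like modifier, was at 91.7, 94.7, 87.5 and 107 CPM at 24 h and at 19.2, 18.5, 18.6 and 19.9 CPM at 72 h. It fell 5.01-fold (log2 fold change -2.32 ± 0.07, edgeR adjusted p = 1.21e-12). Rtp4, a transporter protein induced by interferon, fell 5.08-fold, from 77.3, 89.6, 80.6 and 91.2 CPM to 16.4, 17.7, 18.1 and 14.9 CPM. In both genes every 72 h mouse was below every 24 h mouse.

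Other antiviral effectors and sensors were lower too. Log2 fold changes were -2.08 for Zbp1, the Z-nucleic acid sensor of necroptosis, -1.94 for Ifi44, -1.91 for Oasl2, -1.78 for Dhx58, a cytosolic RNA helicase, -1.64 for Rsad2 (viperin) and -1.63 for Xaf1. Usp18, which blocks signalling at the interferon receptor, had a log2 fold change of -1.82, from 21.5 to 6.11 CPM on average. Of 24 cytokine feedback genes, only Usp18 and Ifnar2 were lower and none was higher, with a list median of -0.008. Among all tested genes 6.49% were lower, so the list as a whole stood near the background. Ifit2 did not pass (log2 fold change -0.31, edgeR adjusted p = 0.147), with means of 8.13 CPM at 24 h and 6.66 CPM at 72 h. Its relatives Ifit1, Ifit3 and Ifit3b were among the lower ISGs.

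Setting the means beside the control mice showed where these genes stood. All 60 falling ISGs had a 24 h mean above the control mean, which held for 359 of all 769 falling genes. At 72 h, 31 of the 60 had a mean below the control mean, against 662 of the 769. The control means include 1 mouse with only 58 cells.

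**Figure D1:**
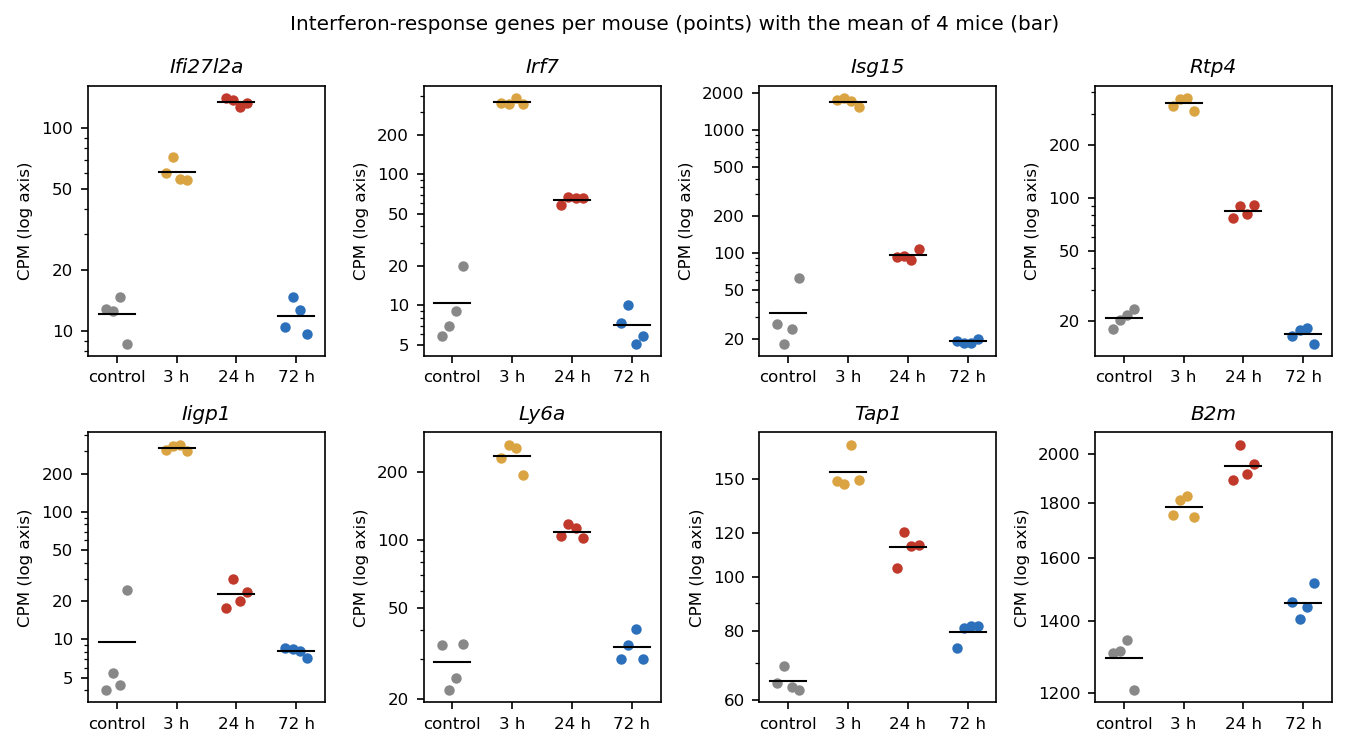
CPM (log axis) of 8 interferon-response genes in each of 4 mice (points) at each of 4 time points, with the mean as a bar. All 4 mice at 72 h lie below all 4 mice at 24 h for every gene shown. The control point far above the others for Irf7, Isg15 and Iigp1 is the mouse with 58 cells.

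The immunity GTPases attack the vacuoles of intracellular microbes. Of 15 tested, 10 were lower and none higher at 72 h, with a median log2 fold change of -0.80. Iigp1 was at 17.8, 29.8, 20.1 and 23.7 CPM at 24 h and at 8.55, 8.41, 8.04 and 7.19 CPM at 72 h, without overlap (log2 fold change -1.54 ± 0.15, edgeR adjusted p = 2.74e-06). Irgm1 went from 50.8 ± 4.17 to 28.7 ± 2.43 CPM (SD, n = 4), Igtp from 24.0 ± 3.07 to 13.9 ± 1.81 CPM and Gbp2 from 17.4 ± 2.37 to 12.7 ± 0.218 CPM. Tgtp2 had a log2 fold change of -1.32, but 65.8% of its transcript end is shared with other genes, so reads of Tgtp2 and its near copies may have been counted for one another.

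MHC class I and its peptide loading machinery came down by a smaller step. Of 24 genes, 19 were lower and none higher, with a median log2 fold change of -0.35. B2m, the light chain, was at 1891, 2041, 1916 and 1957 CPM at 24 h and at 1457, 1405, 1443 and 1518 CPM at 72 h, a 1.34-fold fall (edgeR adjusted p = 3.28e-08), beside a control mean of 1292 CPM. Its mean at 3 h was 1786 CPM, below that at 24 h. Tap1, a subunit of the peptide transporter, was at 104, 121, 114 and 114 CPM and then at 74.6, 81.1, 81.5 and 81.6 CPM, beside a control mean of 65.0 CPM. Tapbp, the loading chaperone tapasin, went from 71.3 ± 1.13 to 49.9 ± 1.61 CPM, with a control mean of 51.9 CPM. The 72 h mean was below the control mean for 6 of the 19 falling genes.

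MHC class II genes present exogenous peptides, and over the whole compartment 2 of 8 were lower and none higher (median -0.41). Cd74, the invariant chain, was at 54.1, 128, 106 and 119 CPM at 24 h and at 83.3, 27.3, 37.5 and 13.6 CPM at 72 h. The groups overlapped through mouse 1 of each (log2 fold change -1.30 ± 0.34, edgeR adjusted p = 0.023). The call was lost without mouse 2 or 4 of 24 h or mouse 2 or 3 of 72 h, with adjusted p from 0.0519 to 0.0686, and with DESeq2 (0.152). Ctss, the protease that trims the invariant chain, was at 27.8 to 31.3 CPM at 24 h and at 15.3 to 18.5 CPM at 72 h, without overlap.

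A minority of the cell death genes linked to interferon were lower. Of 19 pyroptosis and inflammasome genes, Gbp2, Casp1 and Casp8 were lower and none higher, and of 19 necroptosis and death receptor genes, Zbp1, Mlkl, Tnfrsf1a and Casp8 were lower and none higher. Among all tested genes 6.49% were lower. Casp8 is counted in both lists, Zbp1 also among the ISGs and Gbp2 also among the immunity GTPases. Casp1, the protease that cleaves gasdermin D and IL-1β, went from 37.3, 41.1, 38.1 and 37.5 CPM to 30.9, 32.0, 33.2 and 30.3 CPM (log2 fold change -0.29, edgeR adjusted p = 0.00255). Mlkl, the executioner of necroptosis, had a log2 fold change of -0.40 and a 72 h mean of 18.8 CPM, beside 18.3 CPM in controls. Casp4 (log2 fold change -0.22, edgeR adjusted p = 0.129) and Bcl2 (0.11, adjusted p = 0.24) did not pass over the compartment. Within the cell classes described below, Bcl2 was called higher in 1 of 7.

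Ly6a encodes Sca-1, a surface marker of immature cells that interferon raises. It was at 104, 118, 113 and 102 CPM at 24 h and at 29.9, 34.3, 40.7 and 29.9 CPM at 72 h, a 3.26-fold fall (log2 fold change -1.71 ± 0.08, edgeR adjusted p = 4.92e-10). Of the 30 HSC identity genes, Ly6a and Sult1a1 were lower, while Ndn, Txnip, Mycn, Mecom and Apoe were higher (list median 0.17). Txnip, an inhibitor of thioredoxin and glucose uptake, rose from 148, 175, 159 and 157 CPM to 227, 202, 221 and 209 CPM. Mecom (EVI1), a regulator of HSC self-renewal, went from 18.5 ± 1.96 to 22.9 ± 1.23 CPM, a call lost without mouse 4 of 24 h or mouse 1, 3 or 4 of 72 h (adjusted p from 0.0515 to 0.0689). When every cluster of cells was given the same weight in every mouse, the list held 2 higher and 2 lower genes with a median of 0.05, and the calls of Mecom and Mycn were lost.

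**Figure D2:**
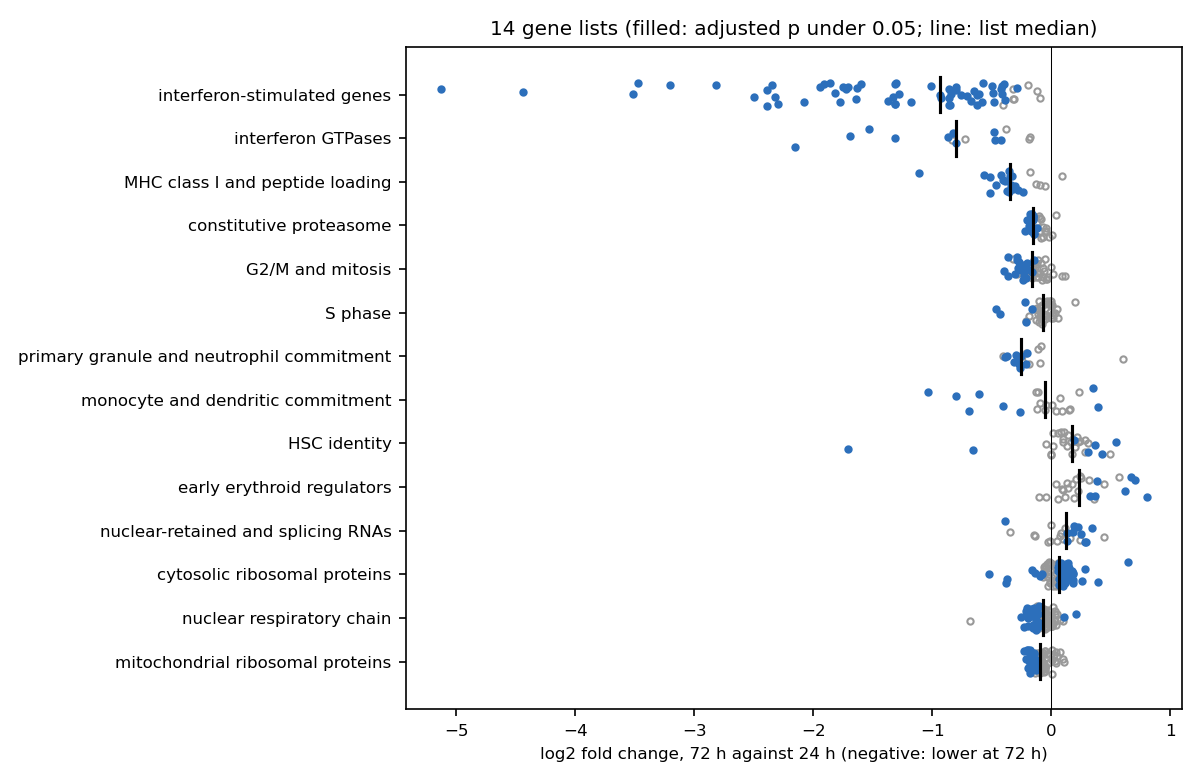
Log2 fold change at 72 h against 24 h (x axis) of each tested member of 14 gene lists, filled where the adjusted p is under 0.05, with the list median as a line. The interferon-stimulated genes lie furthest left (median -0.94), followed by the interferon GTPases (-0.80) and MHC class I genes (-0.35), while the medians of the other lists shown lie between -0.25 and 0.23.

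Part of the mitotic genes were lower at 72 h. Of 50 G2/M and mitosis genes, 18 were lower and none higher, with a median log2 fold change of -0.17. Ccnb2, cyclin B2, was at 99.4, 92.9, 81.9 and 95.4 CPM at 24 h and at 64.8, 71.9, 74.2 and 70.5 CPM at 72 h, without overlap (log2 fold change -0.40 ± 0.06, edgeR adjusted p = 0.000282). Ube2c, the ubiquitin-conjugating enzyme of the anaphase-promoting complex, was at 104 to 112 CPM and then at 84.0 to 93.8 CPM. None of the 18 had a 24 h mean above the control mean, against 359 of all 769 falling genes. All 18 had a 72 h mean below the control mean, as did 662 of the 769. Birc5 (survivin) had means of 179 CPM in controls, 109.9 CPM at 3 h, 123 CPM at 24 h and 103 CPM at 72 h.

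The count of falling mitotic genes differed when clusters were weighted. With every cluster given the same weight in every mouse, 4 of the 50 genes were lower and 1 was higher (median -0.06), and the calls of Ttk, Ube2c and Birc5 were lost. Mitotic genes not called over the compartment could enter the clustering, and some clusters were led by histone genes together with Nusap1 or Mki67. Equal weight of clusters thus also evens out the share of cycling cells, so the lost calls cannot tell that share from the level per cell. With every cell given the same weight, 28 were lower. The S phase genes held 5 lower and none higher of 45. Among these Mcm7, a subunit of the replicative helicase, went from 182 ± 7.98 to 132 ± 7.70 CPM and Pcna, the sliding clamp, from 127 ± 7.13 to 95.0 ± 5.02 CPM, with control means of 175 and 146 CPM.

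Promoters of mitotic genes commonly hold CCAAT boxes bound by NF-Y, and Ccnb2 is shown as the cyclin described above. Its 200 bases before the start hold 3 matches in capitals, 87, 54 and 21 bases before the start.
Ccnb2, GRCm38.p6 chr9:70421555-70421754, minus strand: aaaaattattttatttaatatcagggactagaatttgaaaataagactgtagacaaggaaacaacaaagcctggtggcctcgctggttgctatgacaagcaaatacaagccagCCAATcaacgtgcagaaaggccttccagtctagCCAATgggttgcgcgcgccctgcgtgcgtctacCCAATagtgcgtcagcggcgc

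The letters CCAAT, or on the other strand ATTGG, stood in the 250 bases before the start in 34 of the 43 mitotic genes with a promoter in the table (79.1%), against 37.5% of 27013 genes. They also stood in 15 of the 20 MHC class I genes (75.0%). The letters TTTGAA of the cell cycle homology region, or on the other strand TTCAAA, were held by 17 of the 43 (39.5%), against 18.3%.

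Genes of the myeloid branch changed in part. Of 20 primary granule and neutrophil commitment genes, 10 were lower and none higher (median -0.25). All 10 had a 72 h mean below control, as did 662 of all 769 falling genes. Mgst1, a glutathione transferase, was at 34.1 to 43.1 CPM at 24 h and at 28.5 to 31.6 CPM at 72 h, and Cst7, an inhibitor of lysosomal proteases, went from 119 ± 8.97 to 92.2 ± 6.48 CPM. With every cluster at the same weight, 6 of the 20 were lower (median -0.09), and with all 16 mice in the fit, 3.

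Monocyte and dendritic genes went both ways, with 2 of 21 higher and 6 lower (median -0.05). Csf1r, the receptor of M-CSF, rose from 9.76, 7.92, 8.26 and 9.35 CPM to 12.2, 11.7, 11.2 and 11.2 CPM (log2 fold change 0.40 ± 0.09, edgeR adjusted p = 0.0106, and 0.0506 without mouse 1 of 72 h). Its call was also lost with all mice thinned to equal UMIs (adjusted p = 0.144) and with every cell at the same weight (0.0639). F13a1, a coagulation factor subunit made by monocytes, was at 35.1 to 41.2 CPM at 24 h and at 42.1 to 52.3 CPM at 72 h. Both had 72 h means below their control means of 16.3 and 74.9 CPM. Ly6c2, the surface antigen of classical monocytes, instead fell from 252, 234, 328 and 318 CPM to 183, 173, 204 and 141 CPM (edgeR adjusted p = 0.00052), under a control mean of 409 CPM. Irf8, a transcription factor of the same branch, did not pass over the compartment (log2 fold change 0.09, edgeR adjusted p = 0.418). Within the cell classes described below, Irf8 was called higher in 1 of the 3 where it was tested. With every cluster at the same weight, 3 were higher and 4 lower (median 0.04).

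Early erythroid regulators held 7 higher and none lower of 26, with a median of 0.23. Ermap, an erythroid membrane protein, was at 20.9, 15.5, 23.4 and 20.1 CPM at 24 h and at 31.0, 34.3, 30.3 and 25.6 CPM at 72 h, beside a control mean of 31.9 CPM (log2 fold change 0.62 ± 0.11, edgeR adjusted p = 0.00158). Rhd, the Rh antigen, went from 12.0 ± 3.27 to 20.3 ± 6.21 CPM with overlap, a call lost without mouse 3 of 72 h (adjusted p = 0.0624). Tfrc, the transferrin receptor, went from 21.7 ± 2.27 to 28.1 ± 4.27 CPM with overlap, a call lost without mouse 2 of 24 h (adjusted p = 0.0539) or mouse 1 of 72 h (0.105). With every cluster at the same weight, 1 gene of the list was higher, 2 were lower and the median was 0.04, and the calls of Rhd, Tfrc and Zfpm1 were lost. In sums over the whole compartment, fewer cells of a type and less RNA per cell cannot be told apart.

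Kit rose from 89.1, 101, 94.9 and 89.6 CPM to 119, 119.9, 112 and 111 CPM, without overlap (log2 fold change 0.30 ± 0.05, edgeR adjusted p = 0.000533). Runx1, a transcription factor of definitive haematopoiesis, went from 78.4 ± 2.67 to 96.3 ± 8.47 CPM, and Slc18a2, the monoamine transporter of mast cells, from 23.8 ± 0.897 to 30.9 ± 2.30 CPM. Plac8, expressed in lymphoid-primed and myeloid progenitors, went from 2836 ± 143 to 2028 ± 134 CPM, next to a control mean of 2787 CPM.

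Ccl5, a chemokine of T and NK cells, fell from 10.6, 15.8, 27.4 and 14.3 CPM to 7.89, 2.35, 7.77 and 6.80 CPM. It is 1 of 4 T and NK cell markers tested, of which 2 were lower (Ccl5 and Nkg7) and none higher. Ccl5 also led an unnamed cluster of 713 cells whose markers were nearest to lymphoid-primed multipotent progenitors. Nkg7 is also counted in the primary granule and neutrophil commitment list. Neither gene thus marks T and NK cells alone here. The summed level of that list was 400.3 to 444 CPM at 24 h and 323 to 376 CPM at 72 h, with Nkg7 at 371 to 426 CPM and 317 to 366 CPM. Of its 17 genes 14 had at least 1 UMI, and Cd3e, Ncr1 and Gzma were at 0. With all 16 mice in the fit the calls of Ccl5 (adjusted p = 0.0658) and Nkg7 (0.147) were lost. The summed B and plasma cell markers were at 42.8 to 70.3 CPM and 39.1 to 47.0 CPM, with none of 2 called. The macrophage markers were at 22.1 to 27.3 CPM and 24.5 to 27.7 CPM, with Csf1r higher of 6, and the stromal and endothelial markers at 43.3 to 49.5 CPM and 46.3 to 48.6 CPM, with Igfbp7 lower of 7. The part of such cells in any result was not tested.

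Over the cytosolic ribosomal protein genes more rose than fell. Of 81 tested, 45 were higher and 7 lower, with a median log2 fold change of 0.07, and their summed level was 321844 to 328244 CPM at 24 h and 333311 to 344183 CPM at 72 h. Rps29 was at 2969, 2939, 2985 and 3042 CPM and then at 3844, 3971, 3882 and 4038 CPM (log2 fold change 0.40 ± 0.02, edgeR adjusted p = 2.83e-09). Rpl35 went from 1528 ± 16.9 to 2393 ± 48.7 CPM, with a control mean of 657 CPM and a 3 h mean of 3512 CPM. Rpl27 went the other way, from 1444, 1427, 1431 and 1527 CPM to 1002, 989, 1042 and 1042 CPM (log2 fold change -0.52 ± 0.03, edgeR adjusted p = 2.83e-09). The 72 h mean of Rps29 and Rpl35 lay between those of 24 h and 3 h, and that of Rpl27 below those of all other time points.

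Many of these genes share sequence at the 3′ end, where the libraries read. In GENCODE vM21 transcripts, 36 of the 81 ribosomal protein genes had at least 50% of the 60-base windows in their last 500 bases in common with another gene, and 1 had none. Over all tested genes, 35.1% of the 359 genes with such shared ends were called, 21.0% of the 1036 with some sharing and 8.87% of the 10435 with none. The median absolute log2 fold change was 0.164, 0.0991 and 0.1002 in these sets. Of the 11 genes over 2-fold higher, 5 had such shared ends, 2 had some sharing and 4 had none. Among the genes over 2-fold lower, 16 had such shared ends, 17 had some sharing and 35 had none. Rpl23a-ps3 (85.6% shared) went from 14.3 ± 1.14 to 32.4 ± 1.93 CPM, Gm10020 (86.4%) from 24.0 to 52.3 CPM and Rpl27-ps3 (100.0%) from 20.3 to 40.2 CPM. Rpl27 (41.7% shared) was lower while Rpl27-ps3 was higher, both without overlap.

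Nme2, a nucleoside diphosphate kinase, has 99.2% of its end shared. It was at 47.8, 47.9, 49.2 and 52.2 CPM at 24 h and at 18.2, 17.05, 18.1 and 18.4 CPM at 72 h, a 2.75-fold fall (edgeR adjusted p = 3.59e-11), beside a control mean of 57.1 CPM. Lsm7 (55.6% shared), an RNA-binding subunit of mRNA decay and splicing complexes, went from 84.8 to 126 CPM. Polr2l, a small subunit of RNA polymerases, went from 31.6 to 56.4 CPM. Values of genes with shared ends are uncertain, since reads could be counted for one copy or another, and the part of this in the changes was not tested.

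**Figure D3:**
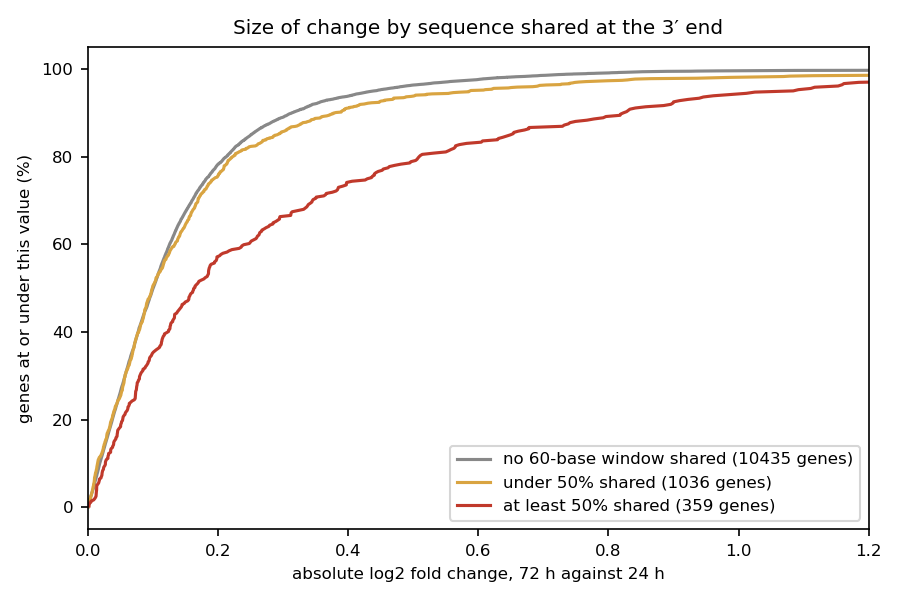
Cumulative share of tested genes (y axis, %) at or under each absolute log2 fold change at 72 h against 24 h (x axis), by how much of the 3′ end is shared with other genes. The curve of the 359 genes with at least 50% shared lies below the others, with a median of 0.164 against 0.1002 for the 10435 genes with no window shared.

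Part of the constitutive proteasome genes and of the mitochondrial genes encoded in the nucleus were lower. Of 34 constitutive proteasome genes, 20 were lower and none higher (median -0.15), with Psmb3, a subunit of the 20S core, at 371, 358, 382 and 397 CPM and then at 315, 322, 341 and 320.2 CPM. All 20 had a 72 h mean below control, as did 662 of all 769 falling genes. Mitochondrial ribosomal protein genes held 23 lower and none higher of 76, and nuclear respiratory chain genes 27 lower and 2 higher of 82, with medians of -0.10 and -0.07. Sdhc, a subunit of succinate dehydrogenase, had a log2 fold change of -0.25 ± 0.05. With every cluster at the same weight, 17, 13 and 22 genes of these lists were lower. Of the 13 mitochondrially encoded genes, 5 were higher and none lower, among them mt-Nd6 from 11.7 to 17.5 CPM and mt-Nd4l from 95.6 to 129.5 CPM.

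Glycolysis genes held 7 lower and 2 higher of 22. Of the 7 lower genes, 6 had a 72 h mean below the control mean, as did 662 of all 769 falling genes. Pgk1, phosphoglycerate kinase, went from 43.9, 45.6, 46.8 and 50.3 CPM to 38.0, 32.1, 34.5 and 37.5 CPM (log2 fold change -0.39 ± 0.06, edgeR adjusted p = 0.000537), above its control mean of 22.7 CPM, while Gapdh (82.5% shared end) had a log2 fold change of -0.34 and Pkm, pyruvate kinase, of -0.26. Hk2 did not pass (log2 fold change 0.14, edgeR adjusted p = 0.139).

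Nuclear-retained and splicing RNAs held 9 higher and 1 lower of 24 (median 0.12). Malat1, a long noncoding RNA of nuclear speckles, was at 7161, 7895, 8338 and 7605 CPM at 24 h and at 9461, 8736, 9592 and 10006 CPM at 72 h (log2 fold change 0.28 ± 0.04, edgeR adjusted p = 0.000265). Kcnq1ot1, an imprinted antisense RNA, went from 209 ± 8.28 to 265 ± 12.5 CPM and Ddx17, a splicing helicase, from 54.9 ± 3.38 to 67.1 ± 2.74 CPM. Rbm3, the cold-induced RNA-binding protein, was the 1 lower member, from 983 to 752 CPM.

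Calls also went with transcript length. Among 4264 genes with a transcript of at least 4000 bases, 240 were higher and 105 lower (median log2 fold change 0.06), while among 2336 genes of 1500 to 2500 bases, 46 were higher and 253 lower (median -0.04). Among 394 genes under 800 bases, 53 were higher and 46 lower (median 0.02). The part of length, and of the lower UMI count per cell at 72 h, in these results was not tested. With the sum of UMIs thinned to the same number in every mouse, which leaves the depth per cell unmatched, 997 genes were called, and 57 ISGs, 19 mitotic genes and 17 proteasome genes were lower.

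To see which cells carried the changes, the 5911 cells were clustered on 1671 variable genes that left out all genes called above. Of 16 clusters, 11 could be named from marker genes, and they formed 7 classes called HSC-like, lymphoid-primed multipotent progenitor-like (LMPP-like), megakaryocyte-like, erythroid-like, basophil/mast/eosinophil-like, monocyte/dendritic-like and neutrophil-like. The unnamed clusters held 32.8% of the cells at 24 h and 34.5% at 72 h on average, and these cells enter no class. UMIs were then summed per mouse within a class. Called genes made up 1.87% (lower) and 1.21% (higher) of the 8019 genes tested in the HSC-like class, 1.48% and 1.0% among LMPP-like cells, 1.48% and 0.842% among megakaryocyte-like cells, and 1.83% and 1.54% in the erythroid-like class. They were 0.504% and 0.41% in the basophil/mast/eosinophil-like class, 2.1% and 1.48% in the monocyte/dendritic-like class and 1.62% and 1.06% in the neutrophil-like class. Classes differ in cells and depth, so counts are not compared between them.

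Genes of the ISG list were lower in every class and higher in none. They were lower in 43 of 56 tested in HSC-like, 43 of 57 in LMPP-like, 31 of 51 in megakaryocyte-like, 36 of 45 in erythroid-like, 13 of 38 in basophil/mast/eosinophil-like, 34 of 47 in monocyte/dendritic-like and 40 of 53 in neutrophil-like cells. ISGs with low counts may have reached the filter of a class through its 24 h mice alone. Isg15 had log2 fold changes from -1.78 ± 0.16 (megakaryocyte-like) to -3.05 ± 0.28 (erythroid-like). Of the 5730 genes tested in all 7 classes, 24 were lower in all of them, among them B2m, H2-K1, H2-D1, Irf7, Isg15, Rtp4, Usp18, Zbp1 and Bst2, and 11 were higher in all of them, mainly ribosomal protein genes together with Malat1. Of the 702 genes called in any class, 443 were called in only 1 class. Ifitm1, an interferon-induced transmembrane gene outside the ISG list, was lower in 2 classes and higher in 2.

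In the HSC-like class 5 of 7 class II genes tested were lower and none higher. Cd74 was at 577, 1029, 1076 and 942 CPM in HSC-like cells at 24 h and at 130.2, 243, 175 and 129 CPM at 72 h, a 5.41-fold fall without overlap (log2 fold change -2.44 ± 0.14, edgeR adjusted p = 4.75e-14). It is a leading gene of this cluster but was left out of the clustering. Ctss, also left out, went from 42.6 to 12.4 CPM. The other lower genes, H2-Aa, H2-Eb1 and H2-Ab1, were not called over the compartment and so could enter the clustering. In megakaryocyte-like cells Cd74 was at 13.1, 34.7, 34.9 and 11.5 CPM and then at 3.78, 8.41, 0 and 1.92 CPM, without overlap. Cd74 may have reached the low-count filter of that class through the 24 h mice alone, so its fall there is no separate support. In LMPP-like cells its log2 fold change of -0.78 ± 0.41 did not pass (edgeR adjusted p = 0.467), and the difference between classes was not tested.

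Of 30 HSC identity genes tested in HSC-like cells, none was higher and 3 were lower, Ly6a, Sult1a1 and Ifitm1. Mecom, of this list, helped to name the class together with Procr, Hlf and Mllt3, and Ly6a is on the marker list of the class. Identity genes not called over the compartment could enter the clustering. Their levels within the class may thus depend in part on how it was formed. Ly6a was at 596, 593, 594 and 616 CPM in HSC-like cells at 24 h and at 162, 262, 282 and 195 CPM at 72 h (log2 fold change -1.39 ± 0.10, edgeR adjusted p = 6.08e-12). It was also lower in LMPP-like cells (188 to 39.7 CPM), megakaryocyte-like cells (39.2 to 10.2 CPM), monocyte/dendritic-like cells (38.5 to 2.49 CPM) and neutrophil-like cells (14.8 to 1.44 CPM), while its counts did not reach the filter in the other classes. In monocyte/dendritic-like and neutrophil-like cells Ly6a may have reached the low-count filter through the 24 h mice alone. A call of lower in these classes is thus no separate support.

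Within monocyte/dendritic-like cells 4 genes of the monocyte and dendritic list were higher and 4 lower of 20. Csf1r was at 45.7, 36.6, 38.1 and 39.6 CPM at 24 h and at 58.1, 60.4, 59.4 and 64.5 CPM at 72 h (log2 fold change 0.63 ± 0.12, edgeR adjusted p = 0.000685), and F13a1 went from 205 to 283 CPM. Cybb, the NADPH oxidase subunit gp91phox, went from 56.8, 58.1, 63.1 and 65.3 CPM to 32.4, 37.2, 35.2 and 41.7 CPM, and Ly6c2 from 1180.3 to 872 CPM. None of these 4 genes overlapped between time points. F13a1, Cybb and Ly6c2 lead this cluster, but all 4 were left out of the clustering. F13a1 and Ly6c2 counted as markers in naming the cluster, and Csf1r is on the marker list of the class.

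In erythroid-like cells 7 mitotic genes were higher and none lower of 48. Ube2c was at 112, 54.6, 107 and 50.6 CPM in erythroid-like cells at 24 h and at 161, 183, 190.0 and 89.3 CPM at 72 h, with overlap (log2 fold change 1.06 ± 0.20, edgeR adjusted p = 0.000812). Birc5 was higher in erythroid-like cells (0.44 ± 0.10) and lower in LMPP-like (-0.60 ± 0.14) and monocyte/dendritic-like cells (-0.40 ± 0.09), and the difference between classes was not tested. A cluster of cycling cells with Car1 among its leading genes was unnamed and so outside this class, and its share went from 4.11% to 1.55%. The class itself joins cluster 2 (4.62% and 4.72% of cells) with cluster 15 (1.83% and 3.05%). The part of this make-up, or of the cluster left outside, in the rise was not tested.

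Wfdc17, a small secreted protein, rose in LMPP-like cells and fell in HSC-like cells. It was at 137, 125, 144 and 148 CPM in LMPP-like cells at 24 h and at 472, 248, 197 and 246 CPM at 72 h (log2 fold change 1.10 ± 0.17, edgeR adjusted p = 0.000215). In HSC-like cells it was at 27.97, 22.9, 12.6 and 26.4 CPM and then at 6.80, 10.0, 4.34 and 2.41 CPM (log2 fold change -1.93 ± 0.34, edgeR adjusted p = 0.000243). With such low 72 h levels it may have reached the low-count filter of the HSC-like class through the 24 h mice alone. Neither class showed overlap, and the difference between the classes itself was not tested. Wfdc17 was left out of the clustering, but it leads cluster 8 of the LMPP-like class and counted as a marker in naming it. That class joins cluster 8 (7.91% and 6.71% of cells at 24 h and 72 h) with cluster 11 (4.53% and 2.93%).

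Megakaryocyte-like cells showed higher chaperones of the endoplasmic reticulum, a group chosen after its values were seen. Of 27 genes of ER stress and the translocon, 7 were higher and none lower in this class, while 4 were lower and none higher over the whole compartment. Hspa5 (BiP), the main ER chaperone, was at 413, 399, 367 and 321 CPM at 24 h and at 642, 632, 610.3 and 596 CPM at 72 h (log2 fold change 0.72 ± 0.06, edgeR adjusted p = 7.61e-10). Hsp90b1 (GRP94) went from 442 to 570.1 CPM, Manf from 212 to 289 CPM and Creld2 from 50.9 to 84.2 CPM, each without overlap. Hspa5 was called higher in 2 of the 7 classes, so its rise was not confined to megakaryocyte-like cells. Hsp90b1, Manf and Creld2 were called in 1 class each, and the difference between classes was not tested.

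**Figure D4:**
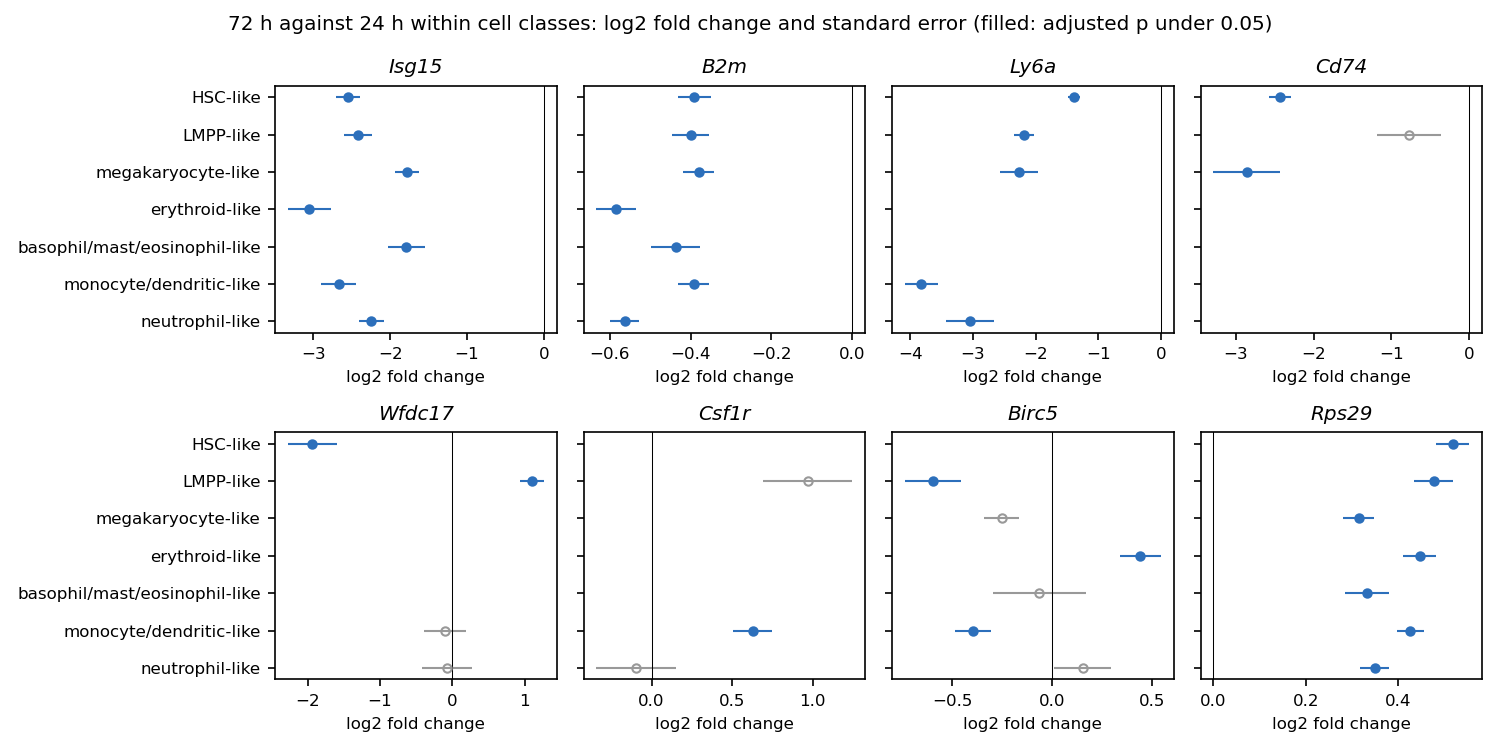
Log2 fold change at 72 h against 24 h (x axis) with its standard error for 8 genes in each of 7 cell classes (rows), filled where the adjusted p is under 0.05 and open where it is not, with no point where the gene was too low for a test. Isg15 and B2m are lower and Rps29 higher in each class, while Wfdc17 and Birc5 lie on both sides of 0.

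The shares of the classes did not pass a test between the time points. HSC-like cells made up 13.03% ± 1.67 of the cells at 24 h and 13.6% ± 1.504 at 72 h (SD, n = 4 mice each, two-sided exact permutation test p = 0.714). LMPP-like cells went from 12.4% ± 1.95 to 9.64% ± 1.81 (exact p = 0.114), monocyte/dendritic-like cells from 7.44% ± 0.201 to 6.95% ± 0.570 (exact p = 0.0857) and neutrophil-like cells from 10.4% ± 1.73 to 8.80% ± 2.66 (exact p = 0.314). Erythroid-like cells were at 6.45% and 7.76% (exact p = 0.371), a class made of cluster 2 (4.62% and 4.72%) and cluster 15 (1.83% and 3.05%, exact p = 0.0571). Megakaryocyte-like cells were at 11.3% and 12.5% (exact p = 0.600) and basophil/mast/eosinophil-like cells at 6.17% and 6.25% (exact p = 0.943). With 4 against 4 mice the smallest exact p is 0.0286.

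A pair of unnamed clusters reached that smallest value. The cycling cluster with Car1 held 2.61%, 4.11%, 4.47% and 5.24% of the cells of the 24 h mice and 1.68%, 1.43%, 0.654% and 2.44% of the 72 h mice, without overlap (exact p = 0.0286, adjusted 0.229). A cluster led by Rec114 and Gm15915 held 7.18%, 6.05%, 7.79% and 7.31% at 24 h and 9.81%, 9.20%, 11.6% and 10.5% at 72 h (exact p = 0.0286, adjusted 0.229). Its leading gene Rec114, a meiotic recombination factor, went from 8.23 to 12.1 CPM in the compartment, a call lost with every cluster at the same weight and without mouse 1 of 72 h (adjusted p = 0.0524). The markers of both clusters were nearest to erythroid progenitors, but neither enters the erythroid-like class. At Leiden resolution 0.5 the erythroid-like class held 17.7% of the cells at 24 h and 19.1% at 72 h (exact permutation test p = 0.429).

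**Figure D5:**
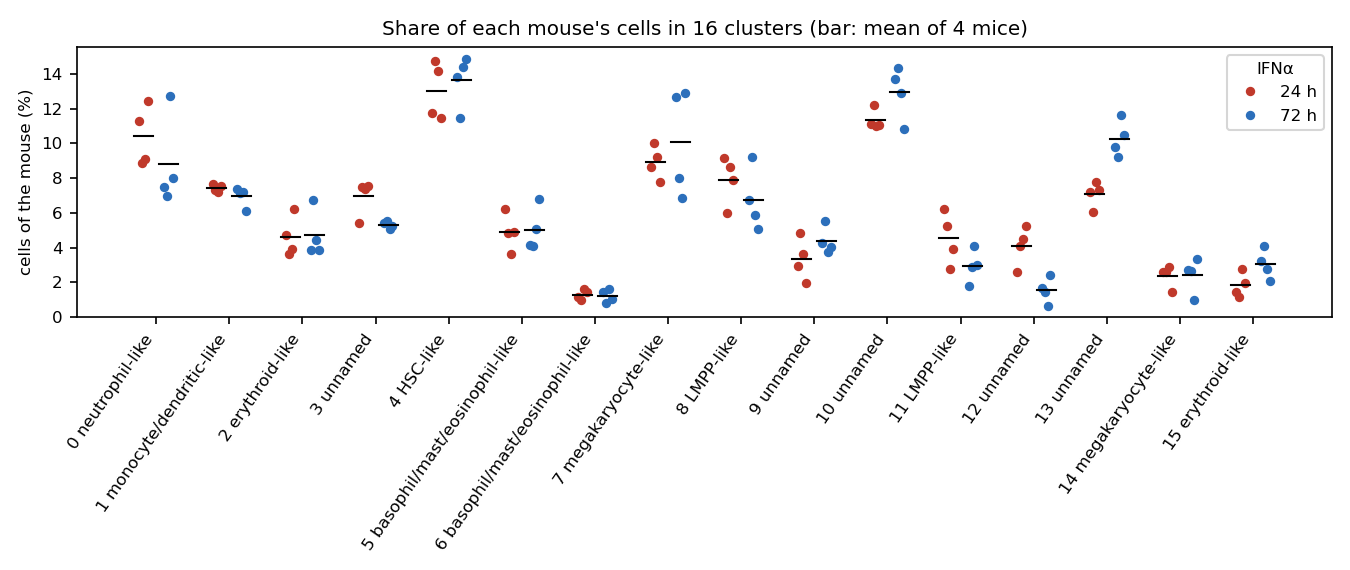
Share of each mouse's cells (y axis, %) in each of 16 clusters at 24 h and 72 h, with points for mice and bars for the mean of 4 mice. The points of the time points do not overlap in clusters 12 (4.11% to 1.55% on average) and 13 (7.08% to 10.3%), while those of the other clusters overlap.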

How the data were processed

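Lineage-negative cKit+ bone marrow cells of 16 mice were profiled by droplet 3′ RNA sequencing with hashtag antibodies, 1 library per time point. The deposited values are raw UMI counts per gene and cell, which the authors made with Cell Ranger 3.1.0 against mm10, with mouse hashtags called by the authors in Seurat. The gene annotation is not given in the sources used here. Hashtag doublets and negatives were removed by these calls, and doublets within a mouse were not treated.

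Barcodes with at most 5% mt- UMIs and at least 700 genes were kept, and counts were summed per mouse. Genes passing edgeR's low-count filter were tested with TMM normalization and the quasi-likelihood test (edgeR 4.0.16, R 4.3.3) on the 8 mice, with Benjamini-Hochberg adjustment, and the code was tested on simulated data. ± gives the SE of a log2 fold change and the SD over 4 mice of a level or a share. CPM were scaled with TMM factors over all 16 mice, and by the UMI total of the class within a class. UMI counts of the 3′ end are compared between samples, not between genes.

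Cells were clustered with scanpy 1.11.5 (2000 variable genes by Pearson residuals, of which 1671 remained without called genes, 30 principal components, 15 neighbours, Leiden resolution 0.8). A cluster was named when at least 2 class markers were among its 10 leading genes, a rule set after the clusters were seen. Class sums were tested as above, and shares by a two-sided exact permutation test over mice. Hashtag numbers were checked for pairing by the correlation of deviations, which was -0.0544 to 0.0346. Differently numbered mice were not compared, so the check cannot show whether same-numbered mice shared a batch.

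Named genes were the 15 largest rises and falls with no overlap and a mean of at least 10 CPM, up to 4 called genes per list (3 of the most abundant where none passed), and genes the study's text names. Genes named only within a class were picked with their values in view. The members and the 48 lists were chosen with earlier results of these data known. The 19 alternative settings covered the test, normalization, filters, depth, weights and single mice.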

Additional observations from a re-analysis of the deposited data

Results flagged for a closer look

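In 9 of 164 groups of 4 mice examined, 1 mouse lay far from the other 3 by Dixon's test at the 95% level. Chance gives about 1 in 20 groups, here 8.2. At 24 h these were mouse 1 for Irf7 (57.83 CPM, the others 65.56 to 66.69), mouse 4 for Cst7 (132.5 CPM, the others 113.2 to 115.6) and mouse 4 for Rpl35 (1553 CPM, the others 1518 to 1523). At 72 h they were mouse 2 for Ifit2 (5.831 CPM, the others 6.896 to 6.966), mouse 3 for Igtp (16.61 CPM, the others 12.78 to 13.21), mouse 1 for Sdhc (72.61 CPM, the others 69.73 to 70.19) and mouse 1 for Tap1 (74.6 CPM, the others 81.08 to 81.58). The share of LMPP-like cells was 15.33% in mouse 1 of 24 h (the others 11.21% to 11.79%), and that of monocyte/dendritic-like cells was 6.108% in mouse 4 of 72 h (the others 7.157% to 7.355%).

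Over all genes tested within classes, 4 were called higher in a class and lower in another, whether or not the mice overlapped. Ifitm1 was among these, lower in 2 classes and higher in 2. A search for no overlap covered only the named genes, the strongest called genes of each class and others picked for the text. There, for 2 genes the 72 h mice lay above all 24 h mice in one class and below all of them in another. Pdia6, a protein disulfide isomerase of the ER, had a log2 fold change of 0.2916 in megakaryocyte-like and -0.2702 in erythroid-like cells. Wfdc17 had 1.099 in LMPP-like and -1.931 in HSC-like cells. These differences between classes were not tested.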

How the results depend on the processing

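Leaving out 1 mouse gave 773 to 1213 called genes against 1271, the lowest without mouse 1 of 72 h, and 77 to 91 over 2-fold. It gave 37 to 61 called genes in the basophil/mast/eosinophil-like class (58 with all mice) and 111 to 201 in the megakaryocyte-like class (199). The other settings gave 936 to 1501 called genes. For 70 called genes of the compartment the call was checked in each setting, while called genes named only as list members were not checked. Of these 70, 14 lost the call in at least 1 of the 19 settings, and none changed sign. On leaving out a mouse 8 lost it, among them Zfpm1 without mouse 1 of 72 h. Hashtag numbers as a replicate block, for which no source states a pairing, gave 1053 called genes and lost 259 of the 1271, none of them among the 70.

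Share differences (72 h minus 24 h, percentage points) changed sign in some settings, none of them passing the test. At Leiden resolution 1.2 they were -1.245 for HSC-like, -1.189 for erythroid-like and 0.0207 for monocyte/dendritic-like cells. The basophil/mast/eosinophil-like difference was -0.0764 at resolution 0.5, -1.091 with all variable genes and -0.45 to 0.5319 on leaving out a mouse. The monocyte/dendritic-like one was 0.3542 with all variable genes, and the megakaryocyte-like one -0.0048 to 2.791 on leaving out a mouse. Leaving out a mouse gave 0.0696 to 1.313 for HSC-like (0.591 with all mice), 0.2943 to 1.929 for erythroid-like (1.319), -3.596 to -1.822 for LMPP-like (-2.789), -2.928 to -0.9369 for neutrophil-like (-1.613) and -0.62 to -0.2045 for monocyte/dendritic-like cells (-0.4859). With all variable genes the HSC-like difference was 2.94. The share of unnamed cells went from 32.4% to 37.6% at resolution 1.2 (exact permutation test p = 0.0286, not adjusted). The causes were not tested. Low genes are limited by the shallower 72 h cells.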

Other observations

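For some other gene groups, counts are given beside the 4.23% higher and 6.49% lower among all tested genes. Of 30 immediate-early genes 1 was higher and none lower (median log2 fold change 0.25), of 24 p53 targets 1 was higher and none lower (0.14), and of 27 cholesterol synthesis and uptake genes 1 was higher and 1 lower (0.03). Of 26 megakaryocyte and platelet genes 2 were higher and none lower (0.13). Replication-dependent histones went both ways, with 6 of 37 higher and 4 lower (0.16).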
